A study of Homo sapiens with 3 samples.

Results

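Estradiol was set against its ethanol vehicle after 3 h in cells of T47D, a long-established luminal line from a human breast cancer. The comparison uses 2 of the 3 samples of the series, chosen by the treatment named in their labels. Its members are 19775 genes, read by 41091 of the 54675 probe sets on an Affymetrix expression array; a probe set is the group of short probes that reports on a transcript. Control cells received 0.1% ethanol, and treated cells received estradiol, the main natural estrogen, at 1 uM. Both cultures had first been kept for 4 h in medium whose 10% serum was charcoal stripped, which removes steroids, and they stayed in it during treatment. The labels mention ethanol for the control cells, and whether the estradiol was given in it is not stated there. RNA of each treatment was read on 1 array. There was no replicate, so no p-value or error between cultures could be given and the single array a side limits all precision. The cell line, the serum and the times are shared by both groups, and the results apply to this line.

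Estradiol acts through the estrogen receptors, which are transcription factors switched on by their ligand. The receptor alpha, encoded by ESR1, recruits coactivators such as the NCOA proteins at response elements, many of them far from gene starts, and also works through other DNA-bound factors such as AP-1. In breast cancer cells its early targets include transcription factors, growth regulators and the progesterone receptor gene, and division follows later. Estrogen is also known to dampen NF-kB signalling in several cell types.

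The deposited values are on a log scale and centred on an unstated middle value per probe set, so that a signal level is not kept while a difference between arrays is. Log base 2 is taken from the RMA method and underlies every fold. A gene's value was the median over its probe sets of estradiol minus vehicle, less the median of all genes, which was -0.0057. Values called differences below are on this log2 scale, where 1 stands for 2-fold. Values given for the vehicle or the estradiol array are the deposited ones, where 0 is the unstated centre of that probe set. The labelled lineage could not be checked by level. Of 16 measured markers of luminal epithelium, 8 lay above and 8 below 0 with a median difference of -0.069. PGR was at least 2-fold higher and TFF3 lower (12.5%, against 3.31% of all genes). None of the 8 basal, 13 fibroblast, 11 leukocyte or 10 endothelial markers differed by 2-fold, with medians between -0.0022 and 0.067. Lists this short cannot tell a count of 0 from the share of 3.31%.

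The arrays also differed in probe sets that report on the RNA and not on the treatment. As deposited, 18S ribosomal RNA had a median difference of 1.86 over 3 probe sets, and that of 27 probe sets for polyadenylated spike transcripts, which are added during labelling, was 0.68. For 28S ribosomal RNA the 5' probe set differed by 2.08, but the middle one by 0.034 and the 3' one by 0.074. The 18 probe sets for hybridisation spikes had a median of -0.10. The 3' minus 5' signal, a sign of RNA integrity and labelling length, differed by -0.78 for ACTB and by -0.53 for GAPDH. The centred values over all probe sets had an SD of 0.193 on the vehicle array and 0.405 on the estradiol array. As they are centred per probe set, this is not the spread of signal on an array. The part of these features in any difference below was not tested, and with 1 array a side treatment and array cannot be told apart.

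At least 2-fold differences were found for 654 of the 19775 genes (3.31%), of which 321 (1.62%) were higher and 333 (1.68%) lower on the estradiol array. These shares are the background for every count of list members below, also where they are not repeated. The lists were chosen with earlier results of these data known, so counts set against the background are descriptions only. Differences of at least 4-fold were seen for 13 genes above and 14 below. SYBU, which encodes a linker of vesicles to kinesin, headed the higher side at 3.04, and CHAC1, which encodes a glutathione-degrading enzyme of the stress response, the lower side at -3.70. The central 50% of genes lay between -0.24 and 0.21, and the 1st and 99th percentiles were -1.12 and 1.16. As deposited, with no centring on all genes, 656 (3.32%) passed, 314 (1.59%) higher and 342 (1.73%) lower. At the cutoff itself, EID1 at 1.0004 counted as higher and MED21 at 0.99944 did not, while SHISA8 at -1.0002 counted as lower and NMRAL1 at -0.9995 did not. When the centred values of both arrays were quantile normalised to each other, 206 genes were higher and 369 lower. The split between directions thus changed with this step, which equalises distances from the centre and not array signals.

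**Figure D1:**
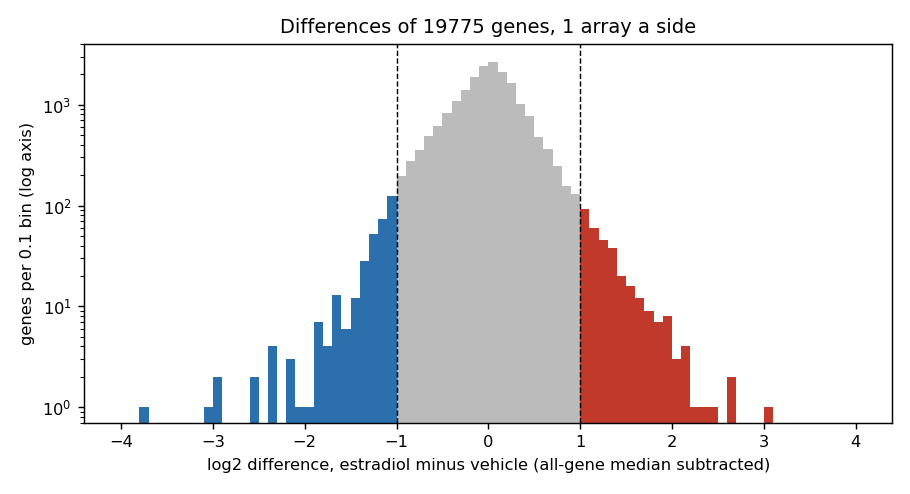
Number of genes (log axis) against the log2 difference, estradiol minus vehicle, in bins of 0.1, with the all-gene median subtracted. The 321 genes at least 2-fold higher are red, the 333 at least 2-fold lower are blue, and the lower tail reaches to -3.70 against 3.04 for the higher one.

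Where each array lay against the centre varied among the lower genes. Among the higher genes the estradiol array lay farther from the centre in 302 of 321 (94.1%), with a median of 1.06 against -0.16 for vehicle. Among the lower genes it did so in 283 of 333 (85%), with medians of -0.94 and 0.23. A vehicle array within 0.5 of the centre and an estradiol array at least 1 away was found for 174 higher and 119 lower genes. The opposite pattern, estradiol near the centre and vehicle at least 1 away, was found for 2 higher and 23 lower genes. The 2 higher genes were KIF20A and BORA, both of mitosis. The 23 lower ones were CHAC1, INHBE, CCL20, DDIT3, IRF1, TNFAIP3, TNF, PPP1R15A, MAFF, CEBPB, JUN, CXCL3, CD83, TNFSF9, RELB, HMOX1, TEX19, EFNA1, OSGIN1, DUSP6, CXCL1, IFRD1 and CDKN1A. Of the 23, 5 were in the list of ATF4 targets, 5 in the NF-kB list, 3 in the chemokine list and 3 in the antioxidant list. A gene can be in more than 1 list. In the same order, these lists hold 37, 28, 32 and 32 of the 19775 genes, and 11, 7, 3 and 5 of the 333 lower genes. The rule itself puts their estradiol value near the centre and their vehicle value high. CHAC1 read 3.63 on vehicle and -0.08 on estradiol, CCL20 2.86 and -0.07, and TNF 2.24 and 0.08. The 119 lower genes with vehicle near the centre included AZGP1, a secreted glycoprotein, with 0.16 on vehicle and -2.38 on estradiol. TIMP1, an inhibitor of matrix proteases, had 0.20 and -2.13. The remaining lower genes met neither rule, as SESN2 with 1.62 on vehicle and -0.69 on estradiol, so these are not separate kinds. Which samples set the centre is not given in the sources used here.

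**Figure D2:**
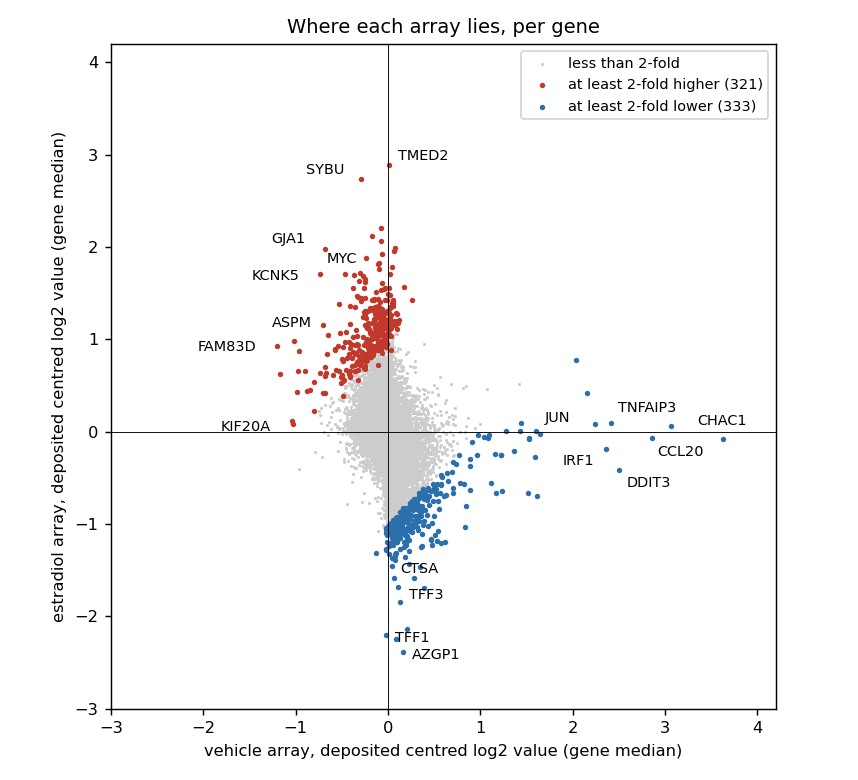
Deposited centred log2 value of each gene on the vehicle array (horizontal) and on the estradiol array (vertical), with genes at least 2-fold higher in red and lower in blue. Lower genes such as CHAC1 (3.63 and -0.08) lie to the right near 0 on the vertical axis, while AZGP1 (0.16 and -2.38), TFF1 and TFF3 lie straight below the centre.

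Known estrogen-induced genes lay mostly above 0, with exceptions among the best known. Of 39 measured members, 26 lay above and 13 below 0, where 50% of all genes lie on either side. At least 2-fold differences were found for 7 members above (background 1.62%) and 2 below, and the list median was 0.32. Without probe sets of the suffixes _s_at, _x_at or _a_at, which can match several transcripts, 28 members kept a value and their median was 0.029. KCNK5, MYC and TPD52L1 were among the members lost, so this median and the main one are not over the same genes. The median over all 39 was 0.20 with both arrays quantile normalised. The full estrogen response element was in 0 of 28 promoters of this list within 250 bases before the start and in 0.0439% of all 27305 promoters. Its half-site GGTCA, on either strand and also part of the full element, was in 9 of 28 (32.1%) and in 33.1% of all promoters. The median difference was 0.56 for the 9 members with the half-site and 0.32 for the 19 without.

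KCNK5, a potassium channel of the 2-pore family, read -0.73 on vehicle and 1.70 on estradiol, a difference of 2.44. MYC, the growth-promoting transcription factor, read -0.47 and 1.71, a difference of 2.18. Each of these genes was measured by 1 probe set, of the suffix _s_at. PGR, the progesterone receptor, was high in both of its probe sets, with vehicle values of -0.62 and -0.52, estradiol values of 1.10 and 0.70, and differences of 1.73 and 1.23. CXCL12, a chemokine, had differences of 1.53 and 0.999. TPD52L1, a tumour protein read only by _s_at probe sets, stood at 1.18. The hormone STC2 was at 1.08 and CXXC5, a zinc-finger protein, at 1.04, though a CXXC5 probe set read -0.29. Just under the cutoff were NRIP1, a corepressor of the receptor, at 0.98, GREB1, an estrogen receptor cofactor, at 0.93 and PKIB, an inhibitor of protein kinase A, at 0.92. The 3 GREB1 probe sets differed widely, at 0.16, 0.93 and 1.64. DEGS1, a ceramide enzyme, stood at 0.71, CA12, a carbonic anhydrase, at 0.61 over 7 probe sets, and the receptor kinase RET at 0.46. Members near 0 were MYB (0.16), RARA (0.04), SUSD3 (0.01), ELOVL2 (-0.00) and IER3 (-0.02).

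TFF1, which encodes a secreted trefoil peptide and is a standard estrogen target, read -0.02 on vehicle and -2.20 on estradiol, a difference of -2.17. CTSD, the lysosomal protease cathepsin D, stood at -1.08, and IGFBP4, a binding protein of insulin-like growth factors, at -0.72. ABCA3, a lipid transporter, was at -0.62 and CELSR2, a cadherin, at -0.53 in both of its probe sets. TFF1, CTSD, IGFBP4 and ABCA3 had 1 probe set each.

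Genes known to fall with estrogen had no common direction: 12 of 23 lay above and 11 below 0, with a median of 0.014. At least 2-fold lower were EFNA1, an ephrin ligand (1.16 on vehicle, -0.24 on estradiol, difference -1.39), and TP53INP2, an autophagy protein (-1.27), against a background of 1.68%. BIK, which promotes apoptosis, stood at -0.80 and KLF6, a zinc-finger factor, at -0.76. CCNG2, a cyclin that slows division, had a gene value of 0.03, but its 5 probe sets ran from -0.94 to 2.72. NEDD9, an adhesion scaffold, was the highest member at 0.76, with 5 probe sets from -0.06 to 2.66. ERBB2 (0.08) and ERBB3 (0.02), receptor kinases, lay near 0.

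Among nuclear receptors, 2 of 34 were at least 2-fold higher (background 1.62%) and 0 lower (background 1.68%). These were PGR and NR1D2 (1.01), a clock repressor whose probe sets read 0.14 and 1.89. ESR1 itself had a difference of 0.21 over 9 probe sets between -0.26 and 0.44, so its probe sets overlapped 0. ESR2, the receptor beta, was at -0.15 and NR3C1, the glucocorticoid receptor, at -0.37. NR5A2, an orphan receptor, was at 0.82 and NR1H3, the sterol sensor LXR alpha, at -0.91. Of 33 coregulators 0 passed 2-fold (background 3.31%). NRIP1 stood at 0.98 at the top, and PELP1, a receptor scaffold, at -0.93 at the bottom. FOXA1 (-0.19) and GATA3 (-0.21), the pioneer factors of the luminal lineage, lay near the all-gene median. Of 20 luminal transcription factors, GRHL1 was higher at 1.499 and CEBPB lower at -1.66. Genes that respond to glucocorticoid or progestin had SGK1, a kinase, at 1.496 and S100P, a calcium-binding protein, at -1.13 as the 2 of 21 past 2-fold (background 3.31%). Of 13 genes of the aryl hydrocarbon receptor pathway 9 lay above 0, led by the cytochrome P450 gene CYP1B1 at 1.92, whose 4 probe sets read 0.13, 1.83, 2.01 and 2.40.

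Mitotic genes were the list with the most members past the cutoff, a rank among lists chosen with earlier results of these data known. Of 46 genes of mitotic entry, spindle and kinetochore, 41 lay above and 5 below 0, and 17 were at least 2-fold higher (background 1.62%) and 0 lower, with a median of 0.81. The list median was -0.48 on the vehicle array and 0.26 on the estradiol array, so that vehicle lay farther from the centre. In RNA from whole cultures, a smaller share of cells in mitosis and less RNA per cell cannot be told apart. The median was 0.73 without suffix probe sets and 0.85 after subtracting the median of genes of like length.

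FAM83D, which carries a kinase to the spindle, read -1.20 on vehicle and 0.93 on estradiol, a difference of 2.14. ANLN, an actin scaffold of the dividing furrow, had differences of 1.07 and 3.07. CDK1, the kinase that starts mitosis, stood at 2.02 with 4 probe sets between 0.45 and 3.13. ASPM, a spindle pole protein, was past 2-fold in all 3 probe sets, at 1.49, 2.01 and 2.75. The kinesins KIF18A (1.87) and KIF14 (1.80), and CENPA (1.84), the histone of the centromere, followed. The remaining members past 2-fold were CKAP2L, NEK2, HMMR, SMC4, SGO2, CENPE, TOP2A, KIF23, KIF20A and NUSAP1. CCNA2, the gene of cyclin A, fell just short at 0.997. The 5 members below 0 were CDC25B (-0.47), AURKB (-0.33), KIF20B (-0.17), SGO1 (-0.04) and CDC20 (-0.03). DEPDC1, another mitotic gene outside the list, stood at 1.77.

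Promoters of such genes carry the CHR, a short element bound by the complexes that hold mitotic genes down outside division, often with CCAAT boxes. Within 250 bases before the start, on either strand, TTTGAA was found in 19 of 40 members with a promoter in the table (47.5%), in 13.6% of all 27305 promoters and in 10.6% of the 15384 promoters of measured genes. CCAAT was found in 29 of 40 (72.5%), against 33.0% of all and 34.1% of measured genes' promoters, and members with and without it had medians of 0.82 and 0.87. The median difference was 1.13 for the 19 members with TTTGAA and 0.66 for the 21 without. Promoter stretches of CENPA, ANLN and HMMR (a spindle protein at 1.39) show the element close to the start. They are from RefSeq on GRCh38.p14, written 5' to 3' along the gene's strand up to the base before the start, with the TTTGAA element, the CCAAT box and the reverse complement of either in capitals. CENPA lies at chr2:26785936-26786055 and ANLN at chr7:36389742-36389861, both on the plus strand, and HMMR at chr5:163460512-163460631 on the plus strand.
CENPA: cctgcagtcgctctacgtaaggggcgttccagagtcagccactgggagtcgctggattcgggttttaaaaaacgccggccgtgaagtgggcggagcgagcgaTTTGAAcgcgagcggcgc
ANLN: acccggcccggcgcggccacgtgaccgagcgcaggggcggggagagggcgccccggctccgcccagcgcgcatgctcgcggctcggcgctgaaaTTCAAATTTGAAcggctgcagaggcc
HMMR: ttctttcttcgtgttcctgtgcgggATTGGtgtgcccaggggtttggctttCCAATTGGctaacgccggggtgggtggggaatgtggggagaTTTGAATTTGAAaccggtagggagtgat
ANLN and HMMR hold TTTGAA more than once, in ANLN as a pair facing opposite ways.

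Genes of the earlier cell cycle showed no common side. Of 39 genes of G1/S and replication, 16 lay above and 23 below 0, with 1 at least 2-fold higher (background 1.62%) and 4 lower (background 1.68%). CDT1 (-1.18) and ORC1 (-1.18), which license replication origins, the polymerase gene POLE (-1.13) and MCM7 (-1.04), a subunit of the replicative helicase, were lower. Of the 6 measured MCM helicase genes 5 lay below 0, with a median of -0.60. CCNE2, a cyclin of S phase entry, stood at 1.17, but its probe sets read 0.00 and 2.35. CCND1, which encodes cyclin D1, had probe sets at -0.32 and 0.98. Of 12 measured histone genes of the replication type 10 lay above 0, with a median of 0.53, and H4C8 (1.21) and H2BC4 (1.07) passed 2-fold; the linker histone H1-10, outside that type, was at -1.02. DNA repair genes had 19 of 28 members above 0 and 3 at least 2-fold higher (background 1.62%), BRIP1 (1.32), USP1 (1.10) and XRCC4 (1.04). Their median of 0.27 was 0.053 without suffix probe sets and 0.18 with quantile normalised arrays. Centrosome and cilium genes had 26 of 31 above 0, with 2 past 2-fold on the higher side (background 1.62%), CEP76 (1.27) and CEP135 (1.02), both of the centriole. Of 27 cell cycle inhibitors and p53 targets, 4 were at least 2-fold lower (background 1.68%) and 3 higher (background 1.62%). The lower ones were SESN2 (-2.30), PMAIP1 (-1.25), PLK2 (-1.13) and CDKN1A (-1.09), the inhibitor p21. The higher ones were FAS (1.69), a death receptor, RBL2 (1.10), a pocket protein, and TIGAR (1.02), which limits glycolysis. FAS was above 0 in all 5 probe sets, from 0.42 to 2.52, and the one at 0.42 was the only one without a suffix.

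**Figure D3:**
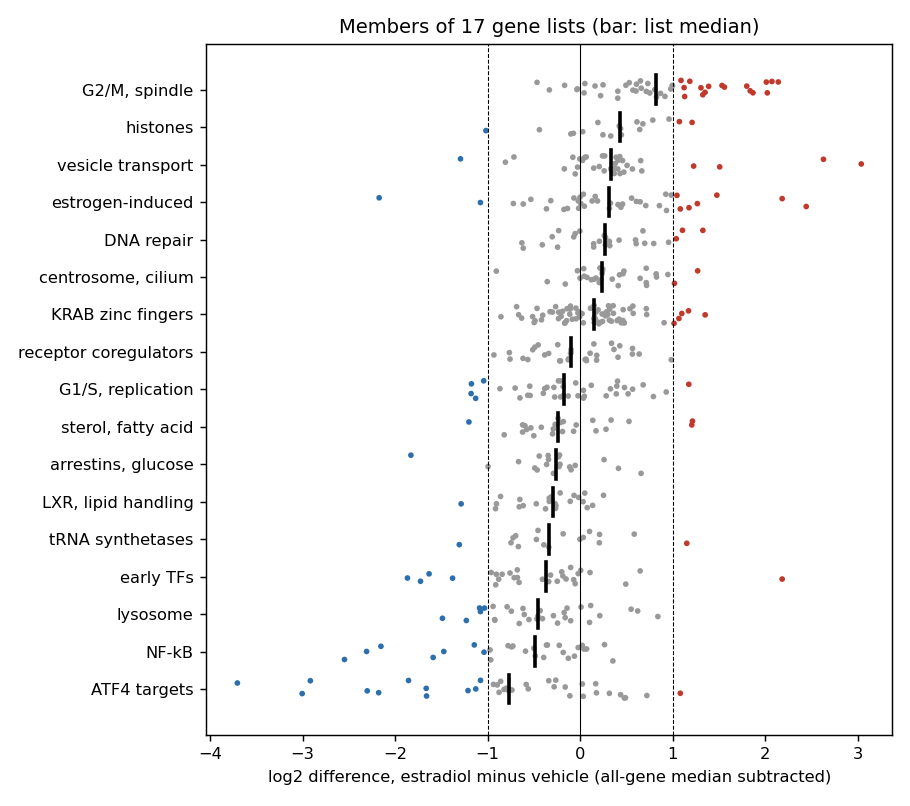
Log2 difference of each measured member of 17 gene lists (points; red at least 2-fold higher, blue at least 2-fold lower) with the list median as a bar. Members of the mitotic list lie mostly right of 0 (median 0.81), and those of the ATF4 (-0.77), NF-kB (-0.49) and lysosome (-0.46) lists mostly left of it.

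Targets of ATF4, the factor that cells make when amino acids are short or the endoplasmic reticulum is stressed, lay mostly below 0, with the vehicle array high. The list median was 0.40 on the vehicle array and 0.022 on the estradiol array. Of 37 measured members 27 lay below and 10 above 0, 11 were at least 2-fold lower (background 1.68%) and 1 higher, and the median difference was -0.77. The 11 lower members had a median of 1.59 on the vehicle array and -0.42 on the estradiol array. They were picked by their difference, and all 333 lower genes had medians of 0.23 and -0.94. Members with at least 2 probe sets had a median of -0.31, and the list median was -0.68 after subtracting the median of genes of like length.

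CHAC1 had the lowest value of all genes at -3.70, from 1 probe set. INHBE, a secreted inhibin subunit, read 3.07 on vehicle and 0.06 on estradiol, a difference of -3.004. DDIT3, the stress factor CHOP, read 2.50 and -0.42, a difference of -2.92. SESN2, which restrains mTORC1, was low in both probe sets, at -2.01 and -2.59, and DDIT4, another such inhibitor, stood at -2.18. PPP1R15A, which ends the stress block on translation, had differences of -1.72 and -1.99 in its 2 probe sets. SLC3A2, a subunit of amino acid carriers, stood at -1.66, the pseudokinase TRIB3 at -1.21, ATF4 itself at -1.13 and CBS, an enzyme of cysteine synthesis, at -1.08. The serine synthesis genes PHGDH (-0.94), SHMT2 (-0.88) and PSPH (-0.77) lay below 0, while PSAT1 of the same pathway was at 0.48. ASNS, asparagine synthetase, was at -0.80. STC2, also in the estrogen-induced list, was the member past 2-fold on the higher side.

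Of 22 amino acid carriers 8 lay above and 14 below 0, with a median of -0.071. The carriers SLC1A4 (-1.24) and SLC1A5 (-1.22) were at least 2-fold lower with SLC3A2 (3 of 22, background 1.68%), and SLC7A5 was at 0.32. Of 17 tRNA synthetases 11 lay below 0, with a median of -0.34; YARS1 was at -1.31 and EPRS1 at 1.15. Chaperones of the endoplasmic reticulum, the other arm of this stress response, had 0 of 27 members past 2-fold (background 3.31%) and a median of -0.048. HSPA5, the main such chaperone, was at -0.45 and HSP90B1 at 0.92. Cytosolic heat shock genes had 14 of 22 above 0, with HSPA4L (1.40) and CCT2 (1.32) past 2-fold; their median of 0.25 was 0.14 without suffix probe sets and 0.15 with quantile normalised arrays.

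ATF4 binds composite C/EBP-ATF elements. TGATGNAA was found in the 250 bases before the start of 4 of 29 ATF4 list promoters (13.8%), of 3.19% of all promoters and of 2.31% of promoters of measured genes, on either strand. The median difference was -0.69 for the 4 members with it and -0.56 for the 25 without. The elements of CHAC1 (chr15:40953236-40953295, plus strand) and ASNS (chr7:97872444-97872503, minus strand) are shown in capitals, from RefSeq on GRCh38.p14 and 5' to 3' along the gene's strand.
CHAC1: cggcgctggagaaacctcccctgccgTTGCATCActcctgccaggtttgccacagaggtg
ASNS: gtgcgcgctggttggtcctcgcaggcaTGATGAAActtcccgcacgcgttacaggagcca
In CHAC1 the match runs on the opposite strand and in ASNS along the gene's own.

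Targets and components of NF-kB, the family of inflammatory transcription factors, also lay mostly below 0, with list medians of 0.31 on the vehicle array and -0.098 on the estradiol array. Of 28 measured members 23 lay below and 5 above 0, and 7 were at least 2-fold lower (background 1.68%) and 0 higher, with a median difference of -0.49. For the 7 lower members, picked by their difference, the median was 1.53 on vehicle and -0.19 on estradiol. For all 333 lower genes it was 0.23 and -0.94. The list median was -0.37 without suffix probe sets and -0.46 after subtracting the median of genes of like length.

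IRF1, an interferon regulatory factor, had vehicle values of 2.80 and 1.93, estradiol values of -0.36 and -0.02, and differences of -3.15 and -1.94. TNFAIP3, the feedback enzyme A20, had vehicle values of 2.04 and 2.79, estradiol values of 0.04 and 0.16, and differences of -1.99 and -2.63. In each probe set of both genes the vehicle array was the one away from the centre. TNF stood at -2.15, the surface protein CD83 at -1.59, the subunit RELB at -1.47, the cytokine IL32 at -1.14 and SOD2, a mitochondrial superoxide dismutase, at -1.04. The subunit genes NFKB2 (-0.97), NFKB1 (-0.36), RELA (-0.23) and REL (-0.06) and the inhibitors NFKBIE (-0.97) and NFKBIA (-0.59) did not reach 2-fold.

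The kappaB motif, GGGA and CC with any 4 bases between them, searched on both strands, was in 14 of 24 promoters of this list (58.3%) against 22.1% of all and 25.8% of measured genes' promoters, and members with and without it had medians of -0.44 and -0.62. Stretches of TNFAIP3 (chr6:137867164-137867223, plus strand), IRF1 (chr5:132490789-132490848, minus strand) and IL32 (chr16:3065288-3065357, plus strand) show it in capitals, where overlapping matches on the 2 strands run together.
TNFAIP3: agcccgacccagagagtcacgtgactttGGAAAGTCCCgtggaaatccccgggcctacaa
IRF1: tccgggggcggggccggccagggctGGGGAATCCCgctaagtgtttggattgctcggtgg
IL32: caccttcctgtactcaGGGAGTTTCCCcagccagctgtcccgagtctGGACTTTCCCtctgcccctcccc
These sequences are from RefSeq on GRCh38.p14, 5' to 3' along the gene's strand.

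Low values among cytokines and interferon genes were found in some members. Of 32 chemokines and cytokines, CCL20 (-2.92), CXCL3 (-1.60) and CXCL1 (-1.15) were at least 2-fold lower and CXCL12 was higher, and the list median was -0.060. CXCL8 (-0.21), CXCL2 (0.03) and IL6 (-0.02) lay near 0. Of 33 interferon and antigen presentation genes, IRF1 and ISG20 (-1.62), an exonuclease, were lower, and IFIT1 (1.51), an antiviral RNA sensor, was higher. All 4 measured IFIT genes lay above 0, with a median of 0.58, whereas MX1 (-0.83), IRF7 (-0.82) and IRF9 (-0.89) lay below.

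Early transcription factors of growth and stress signals had 25 of 30 members below 0 and a median difference of -0.37, which was -0.76 with quantile normalised arrays and -0.26 without suffix probe sets. The list median was 0.44 on vehicle and -0.025 on estradiol, and 4 members were at least 2-fold lower (background 1.68%) and 1 higher. JUNB (1.24 on vehicle, -0.64 on estradiol, difference -1.87) and JUN, subunits of AP-1, were lower, as were MAFF (-1.73) and IER2 (-1.38). JUN was below 0 in all 4 probe sets, at -1.79, -1.75, -1.51 and -0.77, while the MAFF probe sets read -3.19 and -0.26. EGR1 was at -0.91 and FOSB at -0.84, while FOS (0.49), EGR3 (0.65) and MYC lay above 0. The 21 feedback inhibitors of MAP kinases had 9 members above and 12 below 0 and a median of -0.080, with 3 at least 2-fold lower (background 1.68%) and 1 higher. Among them 9 of 10 DUSP phosphatases lay below 0, with DUSP5 at -1.81, DUSP4 at -1.51 and DUSP6 at -1.28. The 3 DUSP4 probe sets were all past 2-fold, and a DUSP6 probe set read 0.18. PHLDA1, another feedback gene, was higher at 1.24, with 6 probe sets from 0.59 to 1.63. Antioxidant and glutathione genes had 24 of 32 below 0 and 5 at least 2-fold lower (background 1.68%), with HMOX1, heme oxygenase, at -1.47, OSGIN1 at -1.34 and GPX3, a glutathione peroxidase, at -1.05, next to CHAC1 and SOD2, and CAT, catalase, at 1.32.

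Some secreted or surface proteins, chosen after their values were seen, were low on the estradiol array. AZGP1 stood at -2.54, TFF1 at -2.17, TFF3, the other trefoil peptide of luminal cells, at -1.97, AGR2, a disulfide isomerase of secretory cells, at -0.81 and PIP, a secretory glycoprotein, at -0.49. TIMP1 was at -2.33 and FOLR1, a folate receptor at the cell surface, at -2.33 with probe sets at -1.65 and -3.01. Other secreted products went the other way, among them CXCL12, STC2, THBS1, LTBP1 and SEMA3C. The keratin and mucin list as a whole had a median of -0.0037, and MUC1 was at -0.53. Of 11 keratins 9 lay above 0 and none passed 2-fold (background 3.31%).

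Lysosomal genes had list medians of 0.077 on the vehicle array and -0.40 on the estradiol array. Of 31 members 24 lay below and 7 above 0, 5 were at least 2-fold lower (background 1.68%) and 0 higher, with a median of -0.46. The 5 were CTSA (0.04 on vehicle, -1.45 on estradiol, difference -1.49), a protective protease, ATP6V0D1 (-1.23), a subunit of the proton pump, TPP1 (-1.09), a peptidase, CTSD (-1.08) and NEU1 (-1.03), a sialidase held by CTSA. The TPP1 probe sets ran from -1.90 to -0.07. TFEB, the factor that switches on lysosomal genes, was at -0.66, and the membrane protein LAMP2 (0.62) and pump subunit ATP6V1A (0.84) lay above 0. The median was -0.27 over members with at least 2 probe sets, -0.61 without suffix probe sets and -0.44 after subtracting the median of genes of like length.

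TFEB and its relatives bind E-boxes of the CLEAR type, whose core is CACGTG. This core, which reads alike on both strands, was in 8 of 23 lysosomal promoters (34.8%), in 6.49% of all promoters and in 7.83% of promoters of measured genes. Members with it had a median difference of -0.99 and the 15 without it -0.41. CTSA (chr20:45891275-45891334, plus strand), CTSD (chr11:1763943-1764002, minus strand) and MCOLN1, a calcium channel of the lysosome at -0.94 (chr19:7522564-7522623, plus strand), show the core in capitals, from RefSeq on GRCh38.p14 along the gene's strand.
CTSA: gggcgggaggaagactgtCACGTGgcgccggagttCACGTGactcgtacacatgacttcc
CTSD: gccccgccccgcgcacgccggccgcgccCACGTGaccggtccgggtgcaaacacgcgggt
MCOLN1: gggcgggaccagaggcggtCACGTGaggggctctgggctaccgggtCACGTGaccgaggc
CTSA and MCOLN1 hold the core more than once, and CTSD once.

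Genes of metal binding and transport went several ways. All 7 measured metallothioneins, which bind zinc and copper, lay below 0 with a median of -0.70, led by MT1X (-1.25) and MT1F (-1.004), and transcripts of this family are close copies that share probes. All 8 measured ZnT exporters of zinc lay above 0 with a median of 0.37, and 0 passed 2-fold (background 3.31%). Of 11 ZIP importers 5 lay above 0, and SLC39A6, also called LIV-1 and known for its link to the estrogen receptor, stood at 2.34. Its 4 probe sets read 0.29, 2.30, 2.38 and 2.53, and the one at 0.29 was the only one without a suffix. MTF1, the zinc-sensing factor of metallothionein genes, was at -0.50. The metal response core TGCNCNC was in 11 of 21 promoters of this list (52.4%), in 48.4% of all promoters and in 53.7% of promoters of measured genes, on either strand, and MT1X holds 4 matches on both strands within 115 bases at chr16:56682315-56682429 (plus strand, RefSeq on GRCh38.p14, matches in capitals).
MT1X: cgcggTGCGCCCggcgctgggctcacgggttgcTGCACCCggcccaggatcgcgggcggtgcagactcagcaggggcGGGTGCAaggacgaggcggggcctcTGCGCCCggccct

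Genes of vesicle transport lay mostly above 0. Of 37 members 29 lay above and 8 below 0, 4 were at least 2-fold higher (background 1.62%) and 1 lower, with a median of 0.34. SYBU read -0.30 on vehicle and 2.73 on estradiol. TMED2, a cargo receptor between endoplasmic reticulum and Golgi, stood at 2.63 with probe sets at -0.07, 2.63 and 3.09. ARFGEF1, an exchange factor for ARF GTPases, was at 1.51 and SEC23A, a coat protein of the same route, at 1.23, whereas the GTPase RAB31 was at -1.29. Of 27 junction proteins 18 lay above 0, and GJA1, the gap junction protein, read -0.68 on vehicle and 1.98 on estradiol, a difference of 2.67. The desmosome genes DSC2 (0.85) and DSG2 (0.87) and CLDN1 (0.92), a tight junction protein, followed, and CLDN3 was at -0.94. Of 30 ion channel genes KCNK5 was higher and ORAI1 (-1.15), the store-operated calcium channel, lower. Among receptors coupled to G proteins and their partners, P2RY2 (1.38), a nucleotide receptor, and GPR160 (1.36) were higher. GPER1, a membrane receptor proposed to bind estradiol, was at 0.12. Of 31 receptor tyrosine kinases RYK (1.11) was higher and 0 were lower, and EGFR was at 0.13.

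In adhesion and matrix genes, THBS1 (1.08, 7 probe sets from 0.31 to 3.10), LAMB1 (1.05), COL12A1 (1.05) and ITGA6 (1.01) were higher, and SDC4 (-1.0012) was lower with TIMP1. Of 41 secreted growth factors SEMA3C (1.08), a semaphorin, was higher and INHBE and EFNA1 were lower, and VEGFA was at -0.26. In the TGF-beta and BMP list LTBP1 (1.29) and the receptor BMPR2 (1.17) were higher, and the target ID1 was at -0.96. In the Wnt, Notch and Hippo list TEAD1 (1.38), the partner of YAP1, and ZNRF3 (1.05), a ubiquitin ligase against Wnt receptors, were higher, and HES1 was at -0.88.

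Several metabolic lists held members past the cutoff. In the glycolysis list 16 of 32 lay on each side of 0 with a median of -0.032, and 4 were at least 2-fold lower (background 1.68%): ENO2 (-1.78), ALDOC (-1.61), NDRG1 (-1.30) and PKM (-1.18). PGK1 was at 0.31 and LDHA at 0.12. Of 25 genes of sterol and fatty acid synthesis 18 lay below 0, with 1, MVD (-1.20), at least 2-fold lower (background 1.68%) and 2, SQLE (1.21) and STARD4 (1.21), higher (background 1.62%); the 4 SQLE probe sets ran from 0.00 to 2.39. Genes of LXR and lipid handling had 19 of 24 below 0 and ACADVL (-1.29), an enzyme of fatty acid oxidation, past 2-fold. The arrestin and glucose list had 17 of 20 below 0, led by ARRDC2 (-1.83), and TXNIP, which restrains glucose uptake, was at -0.44. Respiratory chain genes had 18 of 28 below 0, with UQCRC1 at -1.15. Ribosome biogenesis genes had 19 of 29 below 0 and 0 past 2-fold (background 3.31%), from RRP9 at -0.79 to RRN3 at 0.73. In the insulin and PI3K list SGK1 was higher and DDIT4 lower. In the list of polyamine and nucleotide synthesis PRPS2 (1.36) was higher, and SRM, spermidine synthase, stood at -0.99.

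In gene regulation at large, 43 of 74 KRAB zinc-finger repressors lay above 0 and 5 were at least 2-fold higher (background 1.62%), namely ZNF675 (1.35), ZNF43 (1.17), ZNF195 (1.10), ZNF567 (1.07) and ZNF45 (1.01), with 0 lower. Of 36 histone-modifying enzymes KAT6B (1.18), an acetylase, was higher, and of 32 remodelling subunits ATRX (1.01) was higher and CHD8 (-1.14) lower. In mRNA decay TOB1 (1.59), an antiproliferative adaptor, was higher and EDC4 (-1.05), a decapping scaffold, lower. Among splicing factors SF3B1 stood at 1.02 with probe sets from -0.30 to 1.72. The clock genes had NR1D2 past 2-fold and BMAL1 at 0.98. Of 32 autophagy genes and 36 ubiquitin ligase genes 0 passed 2-fold (background 3.31%), with GABARAPL2 at 0.73 and SIAH2, a textbook estrogen target, at 0.86. In the apoptosis list PMAIP1 was lower at -1.25 and BCL2 was at -0.07. Of 36 kinesin and actin genes DIAPH3 (1.30) and KIF5B (1.04) were higher and RND1 (-1.05) was lower.

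Agreement between probe sets of a gene is the available measure of technical error, and it covers the reading of 2 arrays and not the spread of cultures. Of the 10523 genes with several probe sets, 4757 (45.2%) had all of them on the same side of 0, and the median range between them was 0.52. The share that unrelated signs would give was not calculated, so the 45.2% has no reference. Of 9941 probe sets of the suffix _s_at, 714 were at least 2-fold higher and 275 lower (9.95% in all). Of 26777 without a suffix it was 721 and 618 (5%). The 202 higher genes with several probe sets included 26 with all of them past 2-fold and 31 with both signs, and the 93 such lower genes included 29 and 3. Genes with at least 3 probe sets that were all past 2-fold numbered 6 on each side. Those higher were ASPM (2.01), UGCG (1.63), a glycolipid synthase, ME2 (1.62), a mitochondrial malic enzyme, TEAD1 (1.38), ZFR (1.29, 4 probe sets), an RNA-binding zinc-finger protein, and PRKACB (1.06), a catalytic subunit of protein kinase A. Those lower were SLITRK6 (-1.64), a synaptic membrane protein, CEP126 (-1.64), a centrosome protein, DUSP4 (-1.51), RBM10 (-1.24), a splicing regulator, ASMTL (-1.21) and GPAA1 (-1.17), which attaches GPI anchors. The RBM10 probe sets lay between -1.29 and -1.20.

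Other high genes whose probe sets shared a sign were NIPSNAP3B (2.15), LHFPL6 (1.96), SKIC3 (1.93), SYT1 (1.91), a calcium sensor of vesicle fusion, SGPP1 (1.89), a sphingosine phosphatase, KCTD6 (1.88), CRIM1 (1.79) and RESF1 (1.78). The SGPP1 probe sets ran from 0.35 to 3.43. Other low genes of this kind were GALNT6 (-1.64), which starts mucin glycans, FIBCD1 (-1.54), CLUHP3 (-1.44) and FXYD5 (-1.39). ANXA3, an annexin with 1 probe set, read -0.08 on vehicle and 2.21 on estradiol. The reference transcripts ACTB and GAPDH differed by -0.40 and -0.23.

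**Figure D4:**
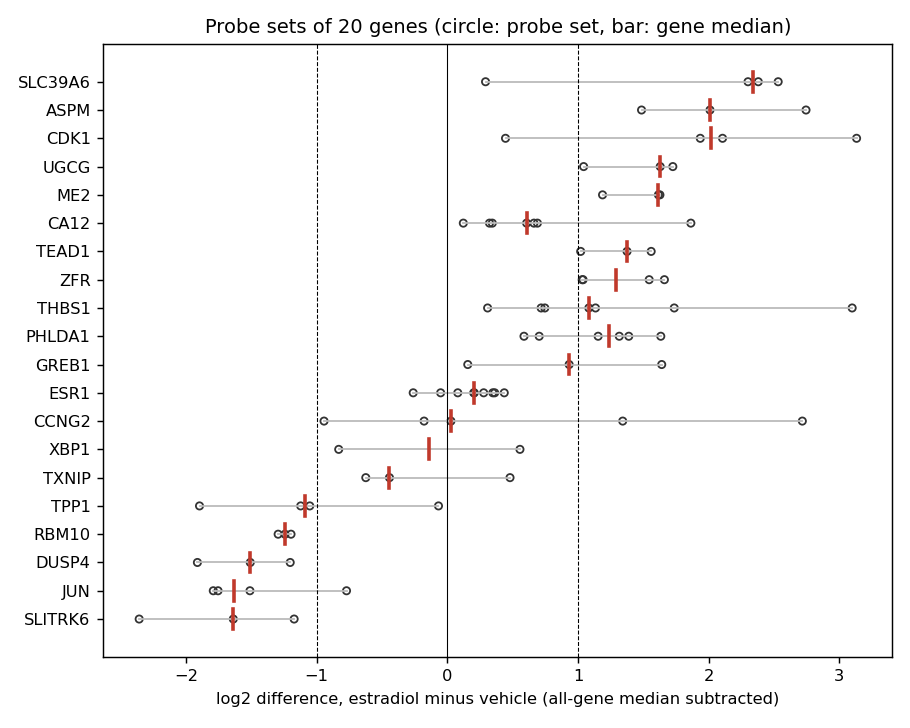
Log2 difference of each probe set (circles) of 20 genes, with the gene median as a red bar and dashed lines at 2-fold. All probe sets of ASPM, ZFR, DUSP4 and RBM10 lie past 2-fold, those of SLC39A6 and CDK1 include 1 well below the others, and those of CCNG2 fall on both sides of 0.

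The genes past the cutoff also differed from the rest in gene length and gene class, which the comparison did not use. The share of higher genes went up with gene length and that of lower genes went down. Protein-coding genes were split into 5 equal groups by gene length, from 339 to 8507 bases in the shortest and from 92479 to 2473620 in the longest. The share at least 2-fold higher was 0.696%, 1.27%, 2.21%, 2.42% and 2.75% from the shortest group to the longest. The share at least 2-fold lower was 3.69%, 2.51%, 1.72%, 0.999% and 0.575%. Median length was 46202.5 bases for the higher genes and 11484 for the lower ones, against 24739 for all genes with a length. Across the 16520 protein-coding genes, which share the same 2 arrays and are not replicates, Spearman's rho between length and difference was 0.247, as a description. The lower genes with the vehicle array away from the centre were shorter still, with a median of 4899 bases. Beside this stand the 3' minus 5' values of ACTB and GAPDH given above, and their part in it was not tested.

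After subtraction of the median of each length group, 316 protein-coding genes were at least 2-fold higher and 258 lower. The list medians stayed on their sides: 0.85 for mitosis, 0.34 for estrogen-induced genes, 0.54 for histones, -0.68 for ATF4 targets, -0.46 for NF-kB, -0.44 for lysosome and -0.34 for early transcription factors. Of long noncoding RNAs, 8 were at least 2-fold higher (0.301%) and 9 lower (0.339%) among 2656, a difference from protein-coding genes that was not tested. Genes with 1 probe set were lower in 2.59% and higher in 1.29%, and those with at least 4 in 0.293% and 1.28%. The number of probe sets is part of how a gene's value was made, as the median over them.

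**Figure D5:**
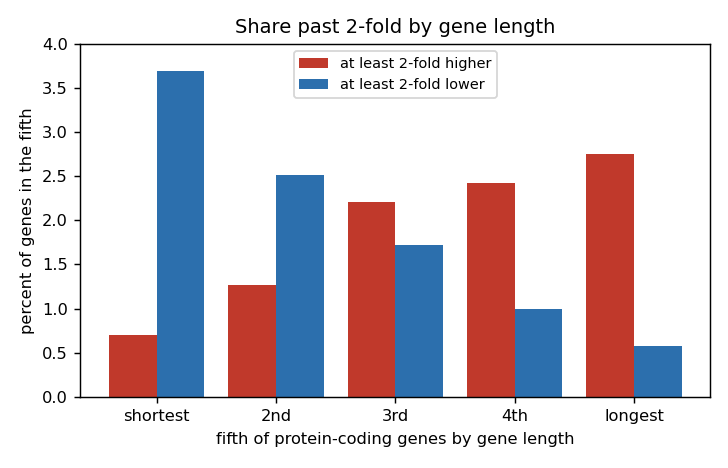
Percent of protein-coding genes at least 2-fold higher (red) or lower (blue) on the estradiol array, by gene length, in 5 equal groups. The higher share goes from 0.696% in the shortest group to 2.75% in the longest, and the lower share from 3.69% to 0.575%.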

How the data were processed

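Total RNA of T47D cells was read on Affymetrix arrays, 1 for vehicle and 1 for estradiol, and groups were taken from the labelled treatment. The deposited values are log2 expression made by the authors with RMA, and the submitters' processing notes name no version of it. Values of both signs show that they were centred, a step no label records. RMA corrects background, equalises array distributions and shrinks dim signals. Centred values hide how bright a probe set was, so no filter on level was used.

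Probe sets with 1 gene symbol in the array's annotation were kept (41091); 1801 with several, 11721 unnamed and 62 control probe sets were left out. The difference was estradiol minus vehicle per probe set, the median per gene (python 3.11.15, pandas 2.3.3, numpy 2.4.6), less the all-gene median. Genes at an absolute value of at least 1 were past the cutoff. No test was possible. Promoters were searched 250 bases before the start, with 1 window per gene; their table's build is GRCh38.p14, and no build is given for the array values. The calculations were tested on simulated data.

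The members and the 59 gene lists were chosen with earlier results of these data known. Genes named are the 15 highest and lowest with at least 2 probe sets on the same side, the 5 highest and lowest with 1 probe set, genes with at least 3 probe sets all past the cutoff, up to 6 members per list past the cutoff or else 2, the estrogen lists, and 8 reference genes. Other list members, genes beside the cutoff, genes grouped by array and the promoters shown were named after their values were seen. Alternatives were the mean over probe sets, no suffix probe sets, no centring, genes with at least 2 probe sets, a 1.5-fold cutoff, quantile normalisation and, chosen after seeing the data, subtraction of the median of genes in the same 1 of 5 length groups.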

Additional observations from a re-analysis of the deposited data

Results flagged for a closer look

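Among the 11721 unnamed probe sets, which the comparison by gene does not use, 479 (4.09%) differed by at least 2-fold between the arrays, 160 higher and 319 lower on the estradiol array. They were singled out as a signal in data that no comparison of genes uses, and their transcripts are not named here.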

How the results depend on the processing

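The counts of genes at least 2-fold higher and lower were 321 and 333. With genes of at least 2 probe sets they were 202 and 93, with both arrays quantile normalised 206 and 369, and with a cutoff of 1.5-fold 1269 and 1728. They were 323 and 327 with the mean over probe sets, 314 and 342 as deposited, 232 and 298 without the suffix probe sets among 16788 genes, and 316 and 258 with the median of the length group subtracted, chosen after seeing the data. Without suffix probe sets CCNE2 read -0.0029 and SF3B1 -0.31, against positive values otherwise, since 1 probe set each remained. SLC39A6 and FAS also kept 1 probe set each, with main differences of 0.29 and 0.42, below the cutoff. The 13 lists with a median at least 0.25 from 0 kept its sign under all 6 alternatives run for lists, and 7 moved by over 0.1 without suffix probe sets and 7 under quantile normalisation. Members with only suffix probe sets have no value without them, so those list medians are over fewer genes. Of 158 named genes past the cutoff, 148 remained past it with the mean, 97 of 117 with a value without suffix probe sets and 119 under quantile normalisation. Dim signal cannot be judged in centred values. No paired analysis was possible because each group had 1 array, and for the same reason no array could be left out.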
